A study of Mus musculus with 10 samples.

Results

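The 10 genes described here encode antagonists of Wnt signalling that are known from bone: Dkk1, Dkk2, Dkk3, Sfrp1, Sfrp2, Sfrp4, Frzb, Wif1, Sost and Kremen1. They were chosen by gene symbol, and every array feature (probe set) annotated to one of these symbols alone was taken, which gave 20 of the 45101 probe sets on the array. Dkk1 lies on chromosome 19, Dkk2 and Sfrp2 on 3, Dkk3 on 7, Sfrp1 on 8, Sfrp4 on 13, Frzb on 2, Wif1 on 10, and Sost and Kremen1 on 11. Kremen1 is not secreted itself but is a cell-surface co-receptor for the secreted Dkk proteins. Gene expression was measured on 10 Affymetrix arrays, each holding total RNA labelled as osteoblasts, the bone-forming cells, from mice aged 2 to 3 days of the background strain written C5BL6 in the labels. The genotypes compared were 3 samples with β-catenin constitutively expressed in osteoblasts (β-catenin active below), 3 with FoxO1 deleted in osteoblasts, and 4 from wild-type mice. The promoter or Cre that restricts either change to osteoblasts, and whether a sample is 1 animal or a pool, are not given in the sources used here, so the p-values measure how far these arrays scatter and not, for certain, how far animals differ. Which part of Ctnnb1 (the β-catenin gene) or Foxo1 was altered is not given either. Sex is recorded as undetermined for all samples.

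Wnt proteins bind a Frizzled receptor together with the co-receptor Lrp5 or Lrp6, which stabilises β-catenin and lets it switch on genes with TCF/LEF factors. The antagonists act upstream of β-catenin and in different places. Sfrp proteins, Frzb (also called Sfrp3) and Wif1 bind Wnt proteins outside the cell, whereas Dkk1, Dkk2 and Sost (sclerostin) bind Lrp5 and Lrp6, and Kremen1 strengthens the action of Dkk1. In bone, sclerostin is made by osteocytes, the osteoblast-derived cells buried in the matrix, and loss of SOST in humans leads to high bone mass.

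The promoters of the genes whose signal differed most between genotypes are shown because β-catenin acts on promoters through TCF/LEF factors. RefSeq promoter windows of build GRCm38.p6, 300 bases long with 250 before and 50 after the gene's start, were found for 6 of the 10 genes (Dkk1, Dkk2, Sfrp2, Frzb, Wif1 and Sost). Capitals mark the letters CTTTG, the core of the TCF/LEF consensus, on either strand (CAAAG where it lies on the other strand). Each window is written 5′ to 3′ on the gene's strand. The Dkk1 window is chr19:30549447-30549746 (minus strand), that of Frzb chr2:80447347-80447646 (minus strand), that of Wif1 chr10:121033754-121034053 (plus strand) and that of Sost chr11:101966966-101967265 (minus strand).
Dkk1: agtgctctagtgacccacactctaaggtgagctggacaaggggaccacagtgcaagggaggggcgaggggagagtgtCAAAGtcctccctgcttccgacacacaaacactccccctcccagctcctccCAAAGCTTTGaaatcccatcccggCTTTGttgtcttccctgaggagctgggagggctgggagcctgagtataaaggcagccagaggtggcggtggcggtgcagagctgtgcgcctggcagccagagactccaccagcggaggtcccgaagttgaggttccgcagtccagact
Frzb: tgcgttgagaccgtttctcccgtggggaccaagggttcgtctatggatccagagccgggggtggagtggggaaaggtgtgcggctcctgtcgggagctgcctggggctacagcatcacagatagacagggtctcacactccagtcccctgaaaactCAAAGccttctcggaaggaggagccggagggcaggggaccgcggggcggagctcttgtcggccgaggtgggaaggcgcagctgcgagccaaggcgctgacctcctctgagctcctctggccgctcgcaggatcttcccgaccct
Wif1: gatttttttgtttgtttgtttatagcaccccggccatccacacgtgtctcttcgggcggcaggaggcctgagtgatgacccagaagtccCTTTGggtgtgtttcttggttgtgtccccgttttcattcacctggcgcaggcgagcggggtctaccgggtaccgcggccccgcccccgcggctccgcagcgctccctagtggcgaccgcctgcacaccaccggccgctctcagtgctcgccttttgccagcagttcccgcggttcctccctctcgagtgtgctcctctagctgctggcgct
Sost: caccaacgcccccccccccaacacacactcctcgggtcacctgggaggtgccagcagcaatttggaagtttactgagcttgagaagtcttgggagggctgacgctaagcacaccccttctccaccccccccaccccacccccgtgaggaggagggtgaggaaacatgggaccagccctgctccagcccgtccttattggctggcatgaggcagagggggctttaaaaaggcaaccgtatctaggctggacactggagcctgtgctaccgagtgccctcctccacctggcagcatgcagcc

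The Dkk1 window held CTTTG 4 times, those of Frzb, Wif1 and Dkk2 held it 1 time each, and those of Sost and Sfrp2 did not hold it. The pair nearest each other in Dkk1 began at -122 and -117 from the start and pointed in opposite directions without overlapping. Of all 32851 mouse windows of this length, 53.9% held CTTTG at least once and 1.4% held it 4 or more times, so a single match is common. The longer form CTTTGA, which contains CTTTG, lay in the windows of Dkk1 (2 times) and Frzb (1 time) and in 16% of all windows. The exact letters GTAAACA, taken for the FoxO consensus and searched on both strands, were in none of the 6 windows and in 3.65% of all windows. Other forms of that consensus were not searched. These matches describe the letters in the windows and were not tested for binding.

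Values are log2 signals as deposited, with a table-wide median of 7.15. Probe sets differ in how they bind, so levels are compared between arrays and never between genes. A probe set was tested if its third-highest value lay above the median, which held for 18 of the 20, with at least 1 for each gene. The Sost probe set 1421245_at and the Kremen1 probe set 1421387_at lay below the median in all 10 arrays and are given as values only. Array medians ran from 7.02 to 7.22. Of the targeted genes, Ctnnb1 read 14.42 to 14.49 with β-catenin active against 14.35 to 14.56 in wild type, and Foxo1 read 9.67 to 10.13 with FoxO1 deleted against 9.93 to 10.09 in wild type, each on its brightest probe set. On the next brightest Ctnnb1 probe set every array with β-catenin active (11.84 to 12.14) lay below every wild-type array (12.3 to 12.37). The difference there was -0.34 (limma adjusted p = 0.0946). A dimmer Ctnnb1 probe set overlapped, at 9.89 to 10.44 with β-catenin active against 10.25 to 10.6 in wild type. The dimmer Foxo1 probe sets were not lower with FoxO1 deleted, with differences of 0.047 and 0.0975 (limma adjusted p = 0.929 and 0.904). A probe set outside the altered part of a gene checks nothing, so these values do not check the labels. As a check of the osteoblast label, the bone matrix genes Col1a1 and Ibsp had means of 15.19 and 14.84 with β-catenin active and 15.11 and 14.74 in wild type. These do not show that the samples held osteoblasts alone, since Acta1 of skeletal muscle had means of 14.87 and 14.64 and Col2a1 of cartilage 12.82 and 11.98 in the same order. The wild-type arrays were not evenly spread. Over the tested probe sets arrays 1 and 2 correlated at 0.988 and arrays 3 and 4 at 0.987, while the other wild-type pairs lay between 0.971 and 0.972. Signal of Xist, made from the inactive X chromosome, was high in wild type 3 and 4 and FoxO1 deleted 2 and 3 (14.05 to 14.43) and did not exceed 8.96 in the remaining 6, which include every array with β-catenin active. In bulk RNA such as this, fewer cells of a type and less RNA per cell cannot be told apart.

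With β-catenin active, 1 antagonist passed the test, on 1 probe set, and that call was lost under several settings given below. Dkk1 fell on 1 of its 2 probe sets, to 0.457 of the wild-type signal, and its other probe set and both probe sets of Frzb also lay below every wild-type array without passing the test. Sost and Wif1 lay above every wild-type array and likewise did not pass, with mean signals 1.94 and 1.65 times those of wild type. Of the 18 tested probe sets of these genes (5.56% called), 0 rose, 1 fell and 17 did not pass, beside 0.507% of all 20127 tested probe sets that changed in this comparison (0.397% rose and 0.109% fell). At an unadjusted p under 0.05 there were 7 of the 18, beside 11.4% of all. In 8 of the 18 (44.4%) both genotypes kept apart on every array, 4 higher and 4 lower with β-catenin active, beside 13.2% of all tested probe sets (6.39% higher and 6.81% lower). The 4 lower probe sets were those of Dkk1 and Frzb, and the dimmer one of Frzb passed the filter only through wild-type arrays. The 4 higher were the brightest probe sets of Sost, Wif1, Sfrp2 and Kremen1. The median difference over the 18 was -0.11, against -0.0033 over all tested probe sets, and their median absolute difference was 0.28 against 0.13. The 18 count genes with several probe sets more than once. With 1 probe set per gene, 5 of the 10 differences were positive and their median was 0.068, against 0.0050 over all genes tested.

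**Figure D1:**
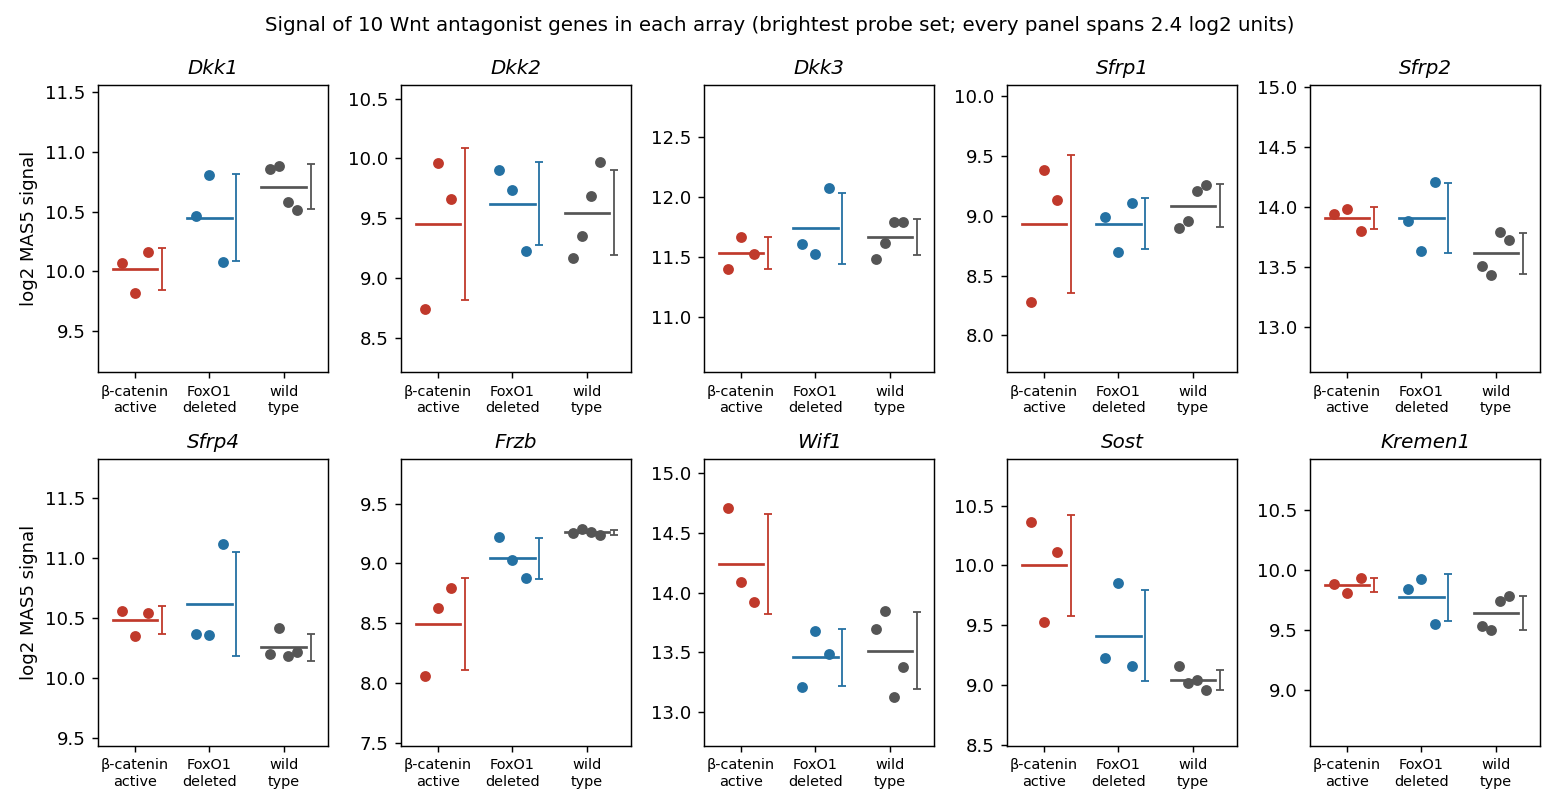
Log2 MAS5 signal of each gene's brightest probe set (vertical axis) in each array, by genotype (β-catenin active, FoxO1 deleted, wild type, left to right); points are arrays, horizontal bars are means and error bars are SD. With β-catenin active, Dkk1 and Frzb lie below all wild-type arrays. Wif1, Sost, Sfrp2 and Kremen1 lie above all of them, while Dkk2, Dkk3, Sfrp1 and Sfrp4 overlap.

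Among the antagonists that bind Lrp5 and Lrp6, Dkk1, known in human cells as a gene that β-catenin and TCF switch on and that closes a feedback loop, gave the clearest difference. Its probe set 1458232_at read 8.12, 8.22 and 8.46 with β-catenin active, against 9.70, 9.59, 9.18 and 9.12 in wild type. No array overlapped. The means were 8.27 ± 0.17 with β-catenin active (SD, n = 3) and 9.40 ± 0.29 in wild type (SD, n = 4), a log2 difference of -1.13 ± 0.18 (SE, adjusted p = 0.0224). Its brighter probe set 1420360_at read 10.07, 9.82 and 10.16 with β-catenin active, against 10.86, 10.88, 10.58 and 10.51 in wild type. Both probe sets thus placed all arrays with β-catenin active at the low end, and both placed wild type 1 and 2 above wild type 3 and 4. The difference on the brighter probe set was -0.69 ± 0.16 (SE, adjusted p = 0.100), or 0.619 of the wild-type signal. The call on 1458232_at was lost without wild type 1 (adjusted p = 0.0694) or 2 (0.0825), and without β-catenin active 1 (0.0993), 2 (0.0865) or 3 (0.0538). It was lost also when the similar wild-type arrays were averaged in pairs (adjusted p = 0.211) and with the replicate number as a block (0.0803), while the difference stayed between -1.40 and -1.03 under all settings tried. In the 5 arrays of these genotypes with low Xist signal alone the difference was -1.38. Wild type is there arrays 1 and 2 alone, a closely similar pair that read highest on this probe set. That setting therefore cannot check the call.

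Sost differed the other way. Its tested probe set 1450179_at read 10.36, 9.53 and 10.11 with β-catenin active, against 9.16, 9.02, 9.04 and 8.96 in wild type. The wild-type arrays lay close together, and the lowest array with β-catenin active still exceeded the highest of them. The means were 10 ± 0.43 with β-catenin active (SD, n = 3) and 9.05 ± 0.084 in wild type (SD, n = 4), a difference of 0.96 ± 0.20 (SE, adjusted p = 0.0690). Over the settings tried its adjusted p ran from 0.0274 to 0.552. It was below 0.05 when only these genotypes were fitted (0.0405), with array weights (0.0330), with each array centred on its median (0.0315), without β-catenin active 2 (0.0274) and without FoxO1 deleted 2 (0.0334). It was highest with the similar wild-type arrays averaged (0.552), and was 0.309 with the replicate block, 0.226 with Xist as a covariate and 0.132 in arrays with low Xist signal. The untested probe set 1421245_at read 5.97, 5.11 and 6.40 with β-catenin active, against 2.82, 5.61, 3.52 and 2.85 in wild type, with wild type 2 inside the range of the other genotype and all values under the table's median.

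Osteocyte markers were measured beside Sost, which osteocytes make. Of 11 tested genes, 4 rose and 7 did not pass, and their median difference was 0.44, beside 0.0050 over the 11357 genes tested. Pdpn (podoplanin, an early osteocyte protein) rose 2.02-fold (adjusted p = 7.62e-04), Ackr3 (a chemokine receptor) 1.67-fold (0.00881), Fbln7 (a matrix protein) 1.87-fold (0.0248) and Ptprz1 (a receptor phosphatase) 1.49-fold (0.0322). The summed linear signal of the 11 genes ran from 73146 to 78431 with β-catenin active and from 55528 to 64956 in wild type. With the similar wild-type arrays averaged, or with Xist as a covariate, only Pdpn of these 4 passed (adjusted p = 0.0125 and 0.0153). Dmp1, a matrix protein that defines osteocytes, differed by 0.11 ± 0.10 (SE, adjusted p = 0.764), and Mepe, another, by -2.35 ± 0.64 (SE, adjusted p = 0.156), with Fgf23 under the filter. The osteocyte score (mean deviation of the 11 genes from their means over all arrays, log2) was 0.357, -0.147 and 0.088 in β-catenin active 1, 2 and 3, against -0.048, 0.024, -0.138 and -0.18 in wild type. The scores with β-catenin active follow the order of Sost on 1450179_at but not on 1421245_at. The score of β-catenin active 2 lay inside the wild-type range although its Sost signal lay above it. The summed signal of the same 11 genes lay above wild type in every array with β-catenin active. The score gives each gene equal weight, and Mepe had an SD of 1.91 with β-catenin active against 0.24 in wild type. The part of Mepe in the score was not tested. With FoxO1 deleted the scores were -0.088, 0.021 and 0.11, and the array with the highest score had the lowest Sost signal. The part of osteocyte content in the Sost difference was not tested.

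The remaining genes of the Dkk group did not pass. Dkk2, which like Dkk1 binds Lrp6, read 8.74, 9.96 and 9.66 with β-catenin active, against 9.17, 9.35, 9.69 and 9.97 in wild type, with array 1 of the first genotype lowest and the rest intermixed. Its difference of -0.092 had a 95% interval from -0.70 to 0.52, too wide to exclude a change of the size seen for Sfrp2 or Kremen1, and its sign changed with single arrays. Dkk3, a divergent family member, was measured more tightly. Its probe sets differed by -0.14 (95% interval -0.43 to 0.16) and 0.0475 (-0.13 to 0.22). Kremen1, the Dkk co-receptor, read 9.88, 9.81 and 9.93 on 1435472_at with β-catenin active, against 9.53, 9.50, 9.74 and 9.78 in wild type. Every array with β-catenin active lay above every wild-type array, by 0.24 ± 0.11 on average (SE, adjusted p = 0.473). Its probe set 1445252_at differed by 0.32 ± 0.22 (SE, adjusted p = 0.641), with overlap, and the untested one by -0.00083.

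Among the antagonists that bind Wnt proteins, Frzb, which is best known from cartilage and joints, was lower. Its probe set 1416658_at read 8.06, 8.63 and 8.79 with β-catenin active, against 9.25, 9.29, 9.26 and 9.24 in wild type. The wild-type arrays spanned less than any gap to the other genotype. The difference was -0.77 ± 0.16 (SE, adjusted p = 0.0670), or 0.588 of the wild-type signal, and of the settings tried it passed with array weights alone (adjusted p = 0.0473). The other probe set, 1448424_at, read 6.16, 6.96 and 6.86 with β-catenin active, against 7.36, 7.40, 7.11 and 7.54 in wild type, again without overlap and near the table's median. Its difference was -0.69 ± 0.26 (SE, adjusted p = 0.325). This probe set passed the filter only through wild-type arrays, where it read higher, and all arrays with β-catenin active lay below the median. Its separation is therefore no independent support for that of 1416658_at. Among chondrocyte markers in the same arrays, 12 of 13 tested cartilage genes had a positive difference, with 0 passing (4 at an unadjusted p under 0.05) and a median of 0.69, and the lowest p belonged to the cartilage regulator Sox9 (0.87, adjusted p = 0.0921). Their summed linear signal ran from 29060 to 37550 with β-catenin active and from 18773 to 26871 in wild type. Each of the 13 had a mean above the table's median in both genotypes, and Col10a1 was under the filter. The cartilage score was -0.083, 0.06 and 0.253 in β-catenin active 1, 2 and 3. Frzb had this order on 1416658_at but not on 1448424_at, where array 2 read highest. The wild-type scores of -0.695 to -0.245 lay below all of these scores, while wild-type Frzb lay above Frzb with β-catenin active. The part of cartilage content in the Frzb values was not tested.

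Wif1, which binds Wnt proteins through its WIF domain, did not pass. It read 14.71, 14.09 and 13.92 with β-catenin active, against 13.70, 13.85, 13.13 and 13.38 in wild type. The groups were separate by a narrow margin between β-catenin active 3 and wild type 2. The difference was 0.73 ± 0.21 (SE, adjusted p = 0.169), and the 95% interval ran from 0.28 to 1.17. In the arrays with low Xist signal, where wild type is arrays 1 and 2, it was 0.47 (adjusted p = 0.410), and without β-catenin active 1 it was 0.49. Sfrp2, a secreted Frizzled-related protein of mesenchymal cells, read 13.94, 13.98 and 13.80 with β-catenin active, against 13.51, 13.43, 13.79 and 13.72 in wild type. Every array with β-catenin active lay above every wild-type array, with wild type 3 close below β-catenin active 3, and the difference was 0.29 ± 0.13 (SE, adjusted p = 0.425). Sfrp4, whose loss in humans thins cortical bone, read 10.56, 10.35 and 10.54 with β-catenin active, against 10.20, 10.42, 10.18 and 10.22 in wild type. Wild type 2 lay inside the range of the other genotype, and the difference was 0.23 ± 0.16 (SE, adjusted p = 0.674).

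Sfrp1, whose loss in mice raises trabecular bone, was represented by 5 tested probe sets, none of which separated the genotypes. The brightest, 1428136_at, read 8.28, 9.38 and 9.13 with β-catenin active, against 8.90, 8.96, 9.21 and 9.26 in wild type. The first genotype held both the lowest and the highest of these values. All 5 differences were negative, from -0.37 to -0.042, and the adjusted p-values ran from 0.696 to 0.955. The probe sets 1438620_x_at, 1460187_at and 1428136_at placed FoxO1 deleted 2 at or next to their lowest value, whereas 1416594_at and 1448395_at placed the same array among their 3 highest.

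**Figure D2:**
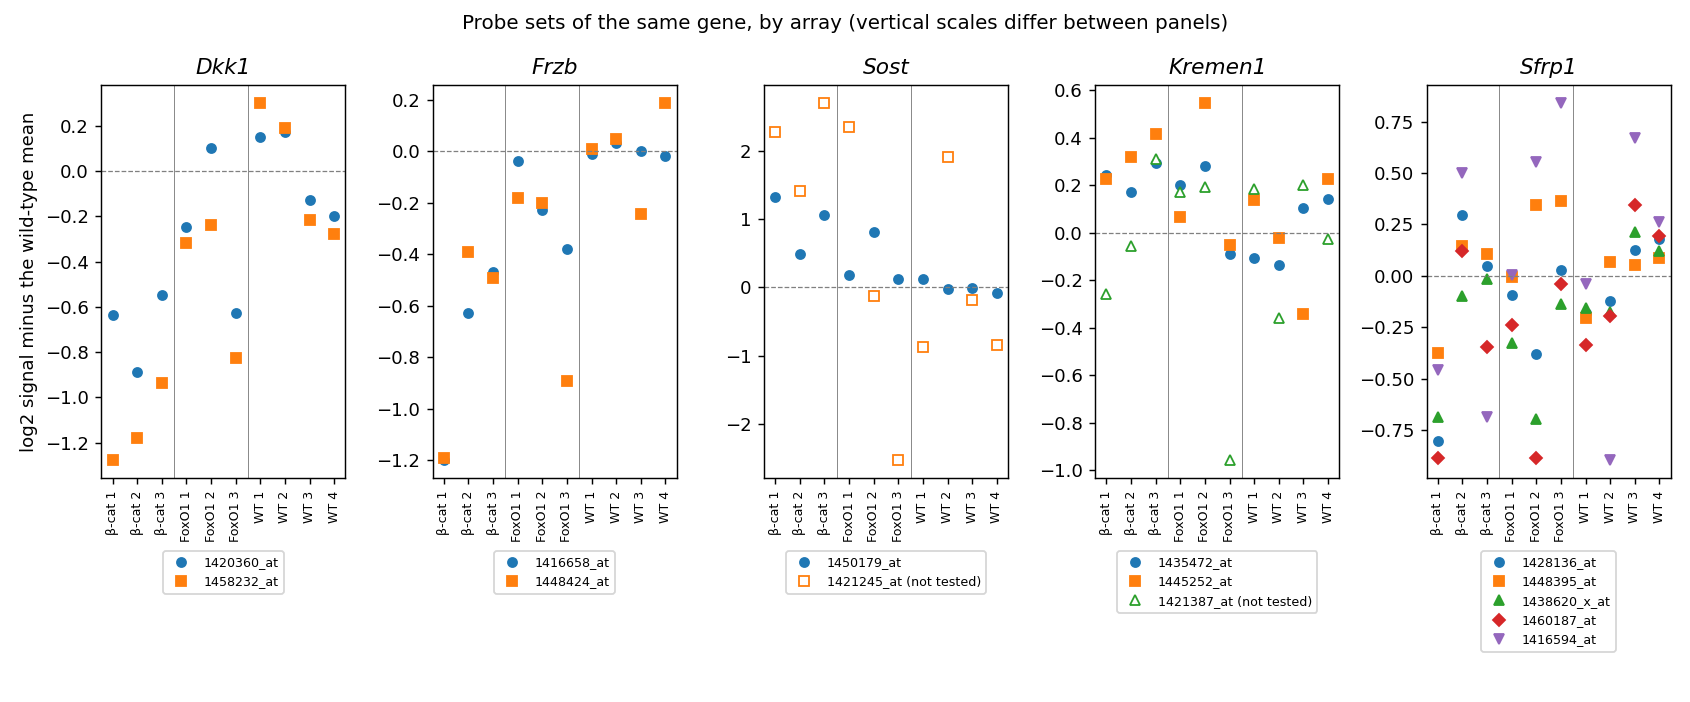
Log2 signal of each probe set minus its own wild-type mean (vertical axis, scales differ) by array (horizontal axis, β-catenin active, FoxO1 deleted, wild type) for the 5 genes with several probe sets besides Dkk3; open symbols mark probe sets that were not tested. Both Dkk1 and both Frzb probe sets are low in all arrays with β-catenin active and in FoxO1 deleted 3, and the Sfrp1 probe sets differ among themselves.

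Other genes of the pathway, with 1 probe set per gene, are set beside these values. Of 13 further Wnt inhibitors tested, 1 rose and 12 did not pass. Notum, an enzyme that inactivates Wnt proteins, rose to 9.41 ± 0.20 with β-catenin active (SD, n = 3), against 7.81 ± 0.24 in wild type (SD, n = 4; 3.03-fold, limma adjusted p = 0.00152), and the median difference of the 13 was 0.26. Of 15 Wnt targets, 4 rose and 0 fell with a median of 0.51, namely Notum, Bambi (a decoy receptor of BMP signals, 1.67-fold, adjusted p = 0.00670), Tnfrsf11b (osteoprotegerin, 3.29-fold, 0.0272) and Lef1 (a partner of β-catenin, 2.41-fold, 0.0391). Of 19 Wnt receptors 0 passed limma's test (4 at an unadjusted p under 0.05), with a median of 0.10 and the smallest p for the receptor Fzd1 (0.36, adjusted p = 0.151). Of 13 ligands, R-spondins and secretion genes 0 passed (4 at an unadjusted p under 0.05), with a median of 0.14 and the smallest p for Wnt5b (0.75, adjusted p = 0.189). The co-receptors that Dkk1 and Sost bind differed by -0.15 ± 0.21 (Lrp5) and 0.15 ± 0.11 (Lrp6; SE, adjusted p = 0.860 and 0.681). Of the 9 genes named in these lists and the marker lists that passed, 6 also passed in arrays with low Xist signal, and 2, Notum and Pdpn, passed with Xist as a covariate or with the similar wild-type arrays averaged. Each list's count and median are given as a description, without a test of the list.

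**Figure D3:**
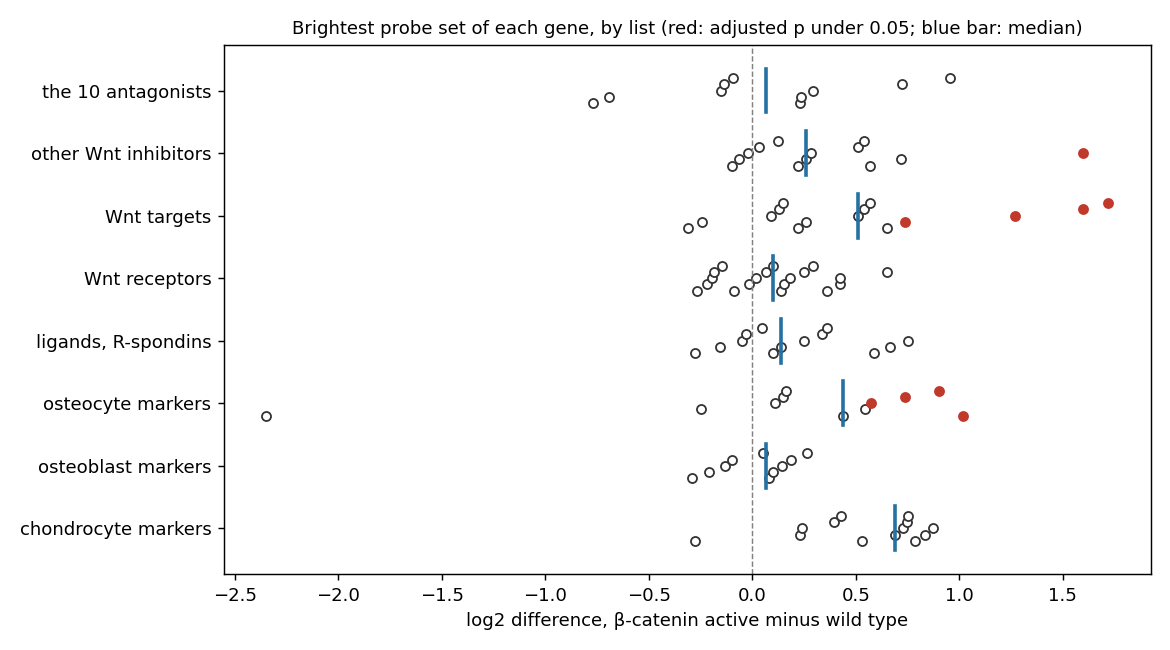
Log2 difference between β-catenin active and wild type (horizontal axis) for the brightest tested probe set of each gene, by list (rows); red points pass at an adjusted p under 0.05 and blue bars are list medians. The 10 antagonists spread to both sides of 0 with a median of 0.068, and the Wnt targets lie mostly to the right with a median of 0.51.

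Other cell types' markers also differed in level in these arrays, and their part in the values above was not tested. Of 10 osteoblast markers 0 passed limma's test (0 at an unadjusted p under 0.05), with a median of 0.068 and the smallest p for the phosphatase Alpl (0.27, adjusted p = 0.456). Of 14 fibroblast and periosteal markers 1 rose, the surface protein Thy1 (1.88-fold, adjusted p = 0.0415), and the summed signal of the list ran from 188785 to 213607 with β-catenin active and from 174706 to 187948 in wild type. Of 10 endothelial markers 0 passed (6 at an unadjusted p under 0.05), with summed signals from 10376 to 11330 and from 8951 to 9144 in the same order, and the smallest p for the receptor Kdr (0.42, adjusted p = 0.0994). Blood cell markers (9 tested, 0 passed, 2 at an unadjusted p under 0.05, smallest p for the erythroid factor Klf1, -2.98, adjusted p = 0.157) summed to 60926 to 71264 with β-catenin active and 58592 to 84724 in wild type. These sums overlapped, but 7 of the 9 differences were negative and the blood score did not overlap, at -0.415, -0.293 and -0.298 with β-catenin active and 0.535, 0.64, 0.074 and -0.07 in wild type. Muscle markers (10 tested, 0 passed, 0 at an unadjusted p under 0.05, smallest p for Acta1, 0.22, adjusted p = 0.754) summed to 56797 to 128547 with β-catenin active and 53934 to 112376 in wild type. The 3' minus 5' signal of Actb, a measure of RNA integrity, was 0.85 to 0.88 with β-catenin active, 0.80 to 0.99 with FoxO1 deleted and 0.60 to 0.77 in wild type, so that both altered genotypes lay above every wild-type array.

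With FoxO1 deleted, none of the antagonists passed the test against wild type. Of 18 tested probe sets 0 passed limma's test and 3 had an unadjusted p under 0.05, beside 0.0149% of all tested probe sets that passed and 7.90% with an unadjusted p under 0.05. In 1 of the 18, lower with FoxO1 deleted, the arrays did not overlap, beside 9.07% of all tested probe sets (4.96% lower). The median difference was 0.074, against -0.012 over all tested probe sets. The 3 were Dkk1 on 1458232_at, Sfrp2 and Sfrp4.

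Dkk1 on 1458232_at read 9.08, 9.16 and 8.57 with FoxO1 deleted, against 9.70, 9.59, 9.18 and 9.12 in wild type. FoxO1 deleted 3 lay below the rest, and FoxO1 deleted 2 lay above wild type 4. The difference was -0.46 ± 0.18 (SE, adjusted p = 0.594), and on 1420360_at it was -0.26 ± 0.16 (SE, adjusted p = 0.721), with values of 10.46, 10.81 and 10.08 with FoxO1 deleted. Both comparisons use the same wild-type arrays, so the negative sign of Dkk1 in both is not independent. Sost on 1450179_at read 9.23, 9.85 and 9.16 with FoxO1 deleted, and its difference from wild type was 0.37 ± 0.20 (SE, adjusted p = 0.673), carried mostly by FoxO1 deleted 2. Without that array the difference was 0.15.

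Sfrp4 read 10.37, 10.36 and 11.12 with FoxO1 deleted, against 10.20, 10.42, 10.18 and 10.22 in wild type. FoxO1 deleted 3 stood apart from all other arrays, and it also had the highest Actb 3' minus 5' signal of the 10 (0.99), whose part was not tested. The difference was 0.36 ± 0.16 (SE, adjusted p = 0.630) and 0.11 without FoxO1 deleted 3. The same array had the highest value of all 10 for Sfrp2 (14.21, with 13.88 and 13.63 in the other arrays with FoxO1 deleted) and Dkk3 (12.08, with 11.61 and 11.53). It had the lowest value of its genotype for Dkk1, Dkk2, Frzb, Sost and Kremen1. Sfrp2 differed from wild type by 0.29 ± 0.13 (SE, adjusted p = 0.628) and by 0.14 without FoxO1 deleted 3. Its mean of 13.91 was the same as with β-catenin active, with an SD of 0.29 against 0.095.

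Frzb on 1416658_at was the probe set without overlap. It read 9.22, 9.03 and 8.88 with FoxO1 deleted, against 9.24 to 9.29 in wild type, where the highest of the first lay just below the lowest of the second. The difference was -0.22 ± 0.16 (SE, adjusted p = 0.762). Wif1 read 13.21, 13.68 and 13.49 with FoxO1 deleted, inside the range of the wild-type arrays. Its difference was -0.055, with a 95% interval from -0.50 to 0.39. The differences of Dkk2 (0.078), Dkk3 (0.07 and 0.13) and Kremen1 (0.13 and 0.19 on its tested probe sets) were all positive and had adjusted p-values from 0.696 to 0.962. The Sfrp1 probe sets differed in sign, from -0.39 to 0.47.

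The pathway lists also held no gene that passed limma's test with FoxO1 deleted. The smallest p-values were those of Axin2, a common readout of Wnt signalling, among 13 other Wnt inhibitors and among 15 targets, each list with 3 genes at an unadjusted p under 0.05 (-0.46, adjusted p = 0.495), Fzd9 among receptors (0.60, 0.531) and Wnt9a among ligands (0.20, 0.641). Among the markers they were those of Dmp1 for osteocytes (0.33, 0.501), Ifitm5 for osteoblasts (-0.18, 0.660), Ucma for chondrocytes (1.69, 0.310), Pdgfrb for fibroblasts (0.30, 0.611), Acta1 for muscle (0.28, 0.755), Egfl7 for endothelium (0.27, 0.641) and Adgre1 for blood cells (0.35, 0.594). Adgre1 was the only 1 of 9 blood cell markers with a positive difference. The median of that list was -0.21, with 3 genes at an unadjusted p under 0.05. All 13 chondrocyte markers had a positive difference, 12 of them at an unadjusted p under 0.05, with a median of 1.04 and a summed signal of 28621 to 72636 with FoxO1 deleted and 18773 to 26871 in wild type. The cartilage gene score was 1.29 in FoxO1 deleted 1, 0.436 in FoxO1 deleted 2 and -0.119 in FoxO1 deleted 3, the same order as that of Frzb over these arrays. Wild type had lower scores than all of these (-0.695 to -0.245) but higher Frzb on 1416658_at. The part of cartilage content in these Frzb values was not tested.

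**Figure D4:**
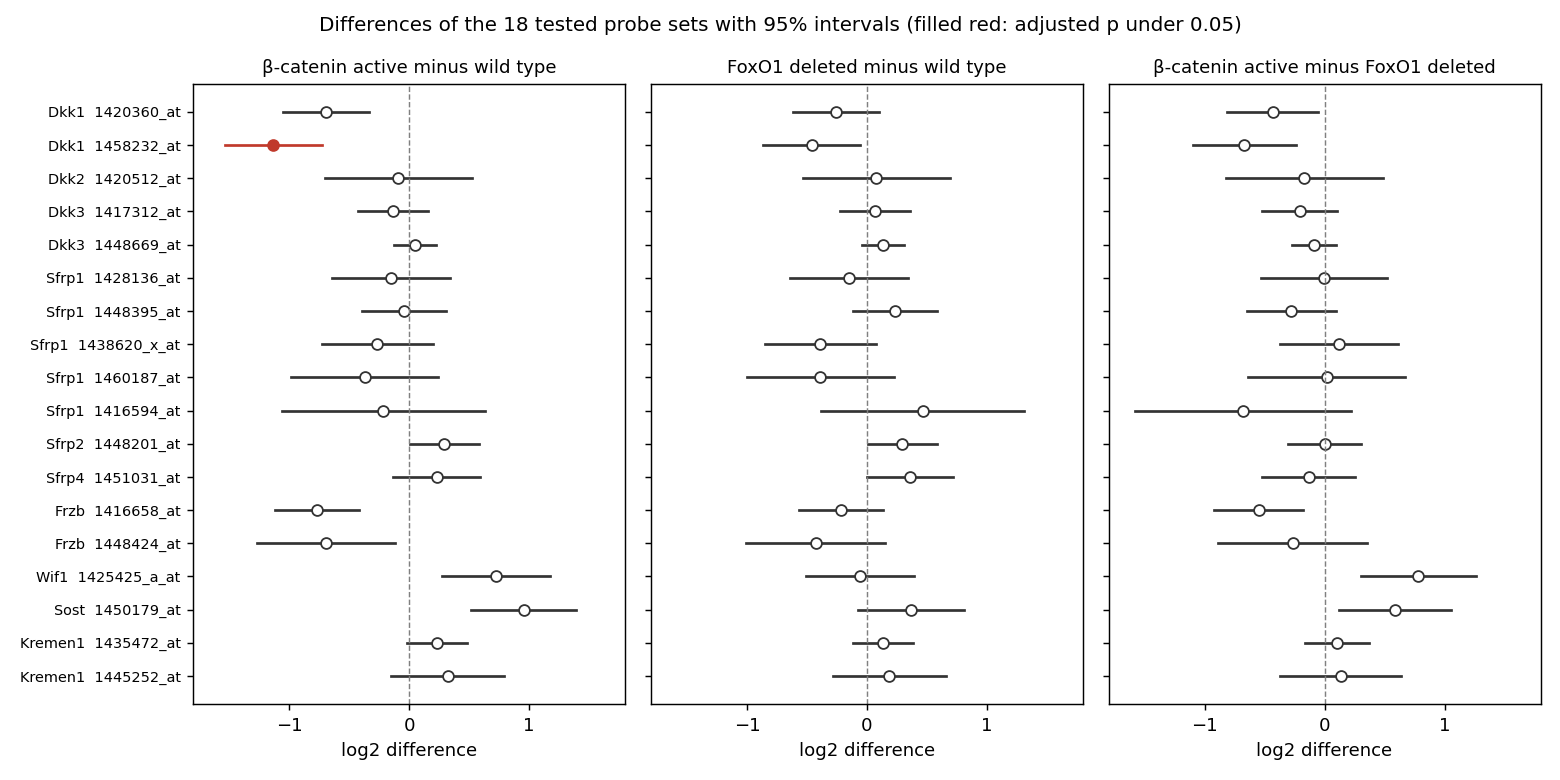
Log2 differences (horizontal axis) of the 18 tested probe sets (rows) with 95% intervals from limma, for β-catenin active minus wild type, FoxO1 deleted minus wild type and β-catenin active minus FoxO1 deleted; a filled red point passed at an adjusted p under 0.05. Dkk1 on 1458232_at against wild type is the only filled point, at -1.13, and in the left panel the intervals of both Dkk1 and both Frzb probe sets, Sfrp2, Wif1 and Sost leave out 0.

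Setting the altered genotypes against each other shows directly where β-catenin active and FoxO1 deleted arrays differ. Of the 18 tested probe sets 0 passed limma's test and 5 had an unadjusted p under 0.05, beside 0.442% of all tested probe sets that passed and 7.65% with an unadjusted p under 0.05. In 3 the arrays did not overlap, 1 higher and 2 lower with β-catenin active, beside 9.60% of all tested probe sets (5.42% higher and 4.18% lower). These were Wif1, higher with β-catenin active by 0.78 ± 0.22 (SE, adjusted p = 0.279), Dkk1 on 1458232_at, lower by -0.67 ± 0.20 (SE, adjusted p = 0.308), and Frzb on 1416658_at, lower by -0.55 ± 0.17 (SE, adjusted p = 0.348). Wif1 read 14.71, 14.09 and 13.92 with β-catenin active, against 13.21, 13.68 and 13.49 with FoxO1 deleted. Sost overlapped through FoxO1 deleted 2 and differed by 0.59 ± 0.21 (SE, adjusted p = 0.494). The differences of Dkk1, Frzb, Wif1 and Sost from wild type were not shown by this test to be particular to β-catenin active.

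In the same comparison some other Wnt inhibitors passed, but no probe set of any gene passed with Xist as a covariate. All arrays with β-catenin active had low Xist signal, as did 1 of the 3 with FoxO1 deleted. Of the 8 genes below that passed on their brightest probe set, 1 (Pdpn) passed in the arrays with low Xist signal and 3 (Notum, Pdpn and Ackr3) with the similar wild-type arrays averaged. Of 13 tested, 3 rose on their brightest probe set, namely Notum (3.07-fold, adjusted p = 0.00230), Nkd1, an inhibitor inside the cell (1.82-fold, 0.0221), and Sostdc1, a secreted relative of sclerostin (2.06-fold, 0.0339). Apcdd1, a membrane inhibitor, differed by 0.74 on its brightest probe set (adjusted p = 0.0709), and another of its probe sets passed. Sostdc1 averaged 9.72 ± 0.22 with β-catenin active and 8.68 ± 0.22 with FoxO1 deleted (SD, n = 3 each). Of 15 Wnt targets, 4 rose, Notum, Nkd1, Bambi (1.63-fold, adjusted p = 0.0140) and Lef1 (2.79-fold, 0.0263). Of 11 osteocyte markers 3 rose, Pdpn (1.91-fold, adjusted p = 0.00230), Ackr3 (1.76-fold, 0.00799) and Ptprz1 (1.61-fold, 0.0173). Only 7 of the 11 differences were positive. Mepe (-2.80 ± 0.68, SE, adjusted p = 0.167) and Dmp1 (-0.22 ± 0.11, SE, adjusted p = 0.693) did not pass. Both read lower in every array with β-catenin active than in every array with FoxO1 deleted. The receptors and ligands had 0 that passed limma's test, with the smallest p for Ror2 (0.41, adjusted p = 0.305) and Wnt11 (0.68, 0.474). Nor did any marker of the other cell types pass, where the smallest p-values were those of S100a4 among fibroblast markers (0.44, adjusted p = 0.0632), Tie1 for endothelium (0.51, 0.308), Col11a2 for chondrocytes (-0.36, 0.465), Klf1 for blood cells (-2.23, 0.545), Pth1r for osteoblasts (-0.35, 0.702) and Myh3 for muscle (-0.65, 0.865).

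Genes with a profile like that of Sost and Dkk1 were sought by the root mean square difference between centred log2 profiles over the 10 arrays, among 11356 other genes and without a test. Closest to Sost, whose own profile had a root mean square of 0.47, were Pcp4l1 (0.17), the osteocyte marker Fbln7 (0.18) and Zfp385c (0.19). Pcp4l1 averaged 8.69 with β-catenin active, 8.14 with FoxO1 deleted and 8.0 in wild type. Closest to Dkk1 on 1420360_at, whose profile had a root mean square of 0.35, were Cldn11, a tight junction protein (0.12), Dck, a deoxycytidine kinase (0.14), and Dhrs13 (0.14). Cldn11 averaged 8.28 with β-catenin active, 8.74 with FoxO1 deleted and 8.98 in wild type.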

How the data were processed

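Total RNA (500 ng, extracted with Trizol per the labels) was hybridised to 1 array per sample. Values are log2 signals as deposited, made with MAS5 per the submitters' processing notes. Base 2 follows from the values: on the linear scale each array's mean after trimming 2% at each end lay between 499.993 and 500.013. No other step by the authors is given in the sources used here. Genes were named from the platform annotation, in which 34958 probe sets had 1 symbol, 932 several and 9211 none listed. Chromosomes and promoters came from RefSeq, GRCm38.p6.

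All 20127 probe sets with 1 symbol whose third-highest value exceeded 7.15 entered 1 limma model (version 3.58.1, R 4.3.3) over the 10 arrays, which gave each genotype its own mean without covariates and used a mean-variance trend in eBayes. This left 7 residual degrees of freedom. Two-sided p-values were adjusted over all of them by Benjamini-Hochberg, with 0.05 as the threshold, and the fit was tested on simulated data. Pathway and marker lists use each gene's brightest tested probe set, and 11357 genes had one. For each list the text names the genes with a probe set that passes (the 4 with the smallest p where more do), or else the one with the smallest p. All probe sets of the 10 antagonists are described, with the 3 closest profiles to Sost and to Dkk1, and any other gene was chosen after its values were seen. The genes, lists and settings were chosen with earlier results of these data known. Other settings covered filters, scaling, 1 probe set per gene, fitted groups, the replicate block, array weights, the variance prior, 16 added before log2, averaged wild-type pairs, Xist signal and leaving out each array. Scan dates were not used here. Precision is limited by the number of arrays.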

Additional observations from a re-analysis of the deposited data

Results flagged for a closer look

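Each of the 20 probe sets was examined for an array far from the rest among the 4 wild-type arrays, by Dixon's ratio of the gap to the whole range against its 95% critical value for 4 samples, which chance exceeds in about 1 of 20 groups. Sfrp1 on 1448395_at had a ratio of 0.897, since wild type 1 read 8.22 and the other wild-type arrays 8.48 to 8.51. Sfrp4 had a ratio of 0.833, since wild type 2 read 10.42 and the others 10.18 to 10.22. The genotypes with 3 arrays are too small for this check.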

How the results depend on the processing

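Over the differences of the 18 tested probe sets in the 3 comparisons, 1155 of 1215 values under other settings neither reversed their sign nor crossed the threshold. Of the others, 10 newly passed, 7 no longer passed and 43 changed sign. The 1155 include all values of Sfrp2 between β-catenin active and FoxO1 deleted, where the difference was 0 and had no sign to keep. The 7 were all Dkk1 on 1458232_at with β-catenin active against wild type. No cause of the changes below was tested, beyond fewer samples where arrays were left out or averaged.

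With β-catenin active against wild type, 102 probe sets passed. The count was 170 when only these genotypes were fitted, 13 with the similar wild-type arrays averaged, 14 with Xist as a covariate, 205 in arrays with low Xist signal and 37 to 143 when 1 array was left out (37 without wild type 2). Of the antagonists' probe sets, 1 passed, against 3 with median centring, with only these genotypes or with array weights, 2 in arrays with low Xist signal, 0 with 1 probe set per gene (where 1458232_at was not used) or averaged wild-type arrays, and 0 to 2 when 1 array was left out. With FoxO1 deleted against wild type, 3 passed, against 1 under the stricter filter, median centring or only these genotypes, 72 with array weights, 8 without the variance trend, 0 with averaged wild-type arrays, 126 in arrays with low Xist signal (1 array with FoxO1 deleted, assumed to vary like the others) and 0 to 8 when 1 array was left out. Between β-catenin active and FoxO1 deleted, 89 passed, against 24 with only these genotypes, 37 with averaged wild-type arrays, 0 with Xist as a covariate, 13 in arrays with low Xist signal and 32 to 79 when 1 array was left out. No antagonist passed under any setting tried in these last comparisons.

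The replicate numbers did not pair the samples, with correlations of same-numbered deviations from -0.261 to 0.236. With the replicate block, 20, 0 and 26 probe sets passed in the 3 comparisons in the same order, 0 of them of the antagonists, and Dkk2 differed by 0.05 in the first.

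These signs changed under another setting. With β-catenin active against wild type, array weights gave 0.035 for Dkk2 and 0.017 for Sfrp1 on 1448395_at. Xist as a covariate gave 0.090 for that probe set, 0.40 for Sfrp1 on 1416594_at and 0.0082 for Dkk3 on 1417312_at. Arrays with low Xist signal gave 0.19 for Dkk2, and 0.028 and 0.25 for the same Sfrp1 probe sets. With FoxO1 deleted against wild type, array weights gave -0.015 for Dkk3 on 1417312_at, and low Xist signal gave 0.06 and 0.03 for Sfrp1 on 1428136_at and 1460187_at. Between β-catenin active and FoxO1 deleted, Sfrp1 on 1460187_at was -0.02 with median centring and -0.13 with low Xist signal. There Sfrp1 on 1428136_at was 0.079 with array weights and 0.069 with the Xist covariate, Sfrp4 was 0.025 with array weights and 0.11 with low Xist signal, Sfrp1 on 1416594_at was 0.076 with the covariate, and Dkk3 on 1448669_at was 0.013 with the covariate and 0.01 with low Xist signal.

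Leaving out 1 array at a time moved the following differences across 0. With β-catenin active against wild type these were Dkk2 (-0.345 to 0.265) and Sfrp1 on 1416594_at (-0.5725 to 0.0225), 1428136_at (-0.38 to 0.17) and 1448395_at (-0.135 to 0.125). With FoxO1 deleted against wild type these were Dkk2 (-0.06 to 0.275), Dkk3 on 1417312_at (-0.10 to 0.175) and Wif1 (-0.18 to 0.07). Between β-catenin active and FoxO1 deleted these were Dkk2 (-0.42 to 0.19), Kremen1 on 1435472_at (-0.0067 to 0.18), Sfrp4 (-0.26 to 0.12) and Sfrp1 on 1428136_at (-0.23 to 0.32), 1438620_x_at (-0.035 to 0.33) and 1460187_at (-0.23 to 0.275). Sfrp2, with a difference of 0 over all arrays, ran from -0.14 to 0.15 in that comparison.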
